A study of Mus musculus with 6 samples.

Results

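Cdh1, Itgae, Itgb3 and Itga6 encode E-cadherin and 3 integrin subunits, and were followed on microarrays of mouse T cells cultured with or without the protein BTNL2. All probe sets annotated to 1 of these 4 genes and to no other gene were taken: 6 of the 45037 probe sets measured, and 4 of the 17097 genes named. Cdh1 and Itgae have 1 probe set each, Itgb3 and Itga6 have 2 each. The genes were chosen by their intensities on these arrays, known to be higher in BTNL2 wells, so those intensities are described here, no p-value is given for them, and the counts of calls printed for them carry no evidence of their own.

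CD4+CD25- T cells of female C57BL/6 mice were cultured for 4 days, and RNA from each well was put on 1 array. BTNL2 wells (2 arrays) held anti-CD3 at 2 µg/ml, B7-2.Fc at 3 µg/ml and BTNL2.Fc at 11 µg/ml. B7-2 wells (2 arrays) held the same anti-CD3 and B7-2.Fc with a control IgG1. Anti-CD3 wells (2 arrays) held anti-CD3 with IgG and neither Fc fusion protein. All 3 groups also received IL-2 (10 ng/ml) and recombinant human TGF-beta (0.36 ng/ml), so no group shows the cells without TGF-beta. One label gives spleen as the tissue and another gives spleen and lymph nodes. B7-2 (CD86) is a costimulatory ligand of T cells, BTNL2 is a butyrophilin-like protein of the same wider family that is known to restrain T cell activation, and an Fc fusion joins such a protein to an antibody tail. The labels do not say that the duplicates came from separate animals, so each p-value measures only the spread between these cultures.

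E-cadherin is an adhesion molecule that binds E-cadherin on neighbouring cells and is anchored to actin through catenins. It is also a ligand: CD103, the αE integrin chain encoded by Itgae, pairs with the β7 chain (Itgb7) to bind it and so holds T cells in epithelium, and the inhibitory receptor KLRG1 binds it too. TGF-beta is a known inducer of CD103 in T cells. The β3 chain pairs with αv (Itgav) or αIIb (Itga2b) in receptors for vitronectin and fibrinogen, and the α6 chain pairs with β1 (Itgb1) or β4 (Itgb4) in receptors for laminin.

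Values are RMA intensities on a linear scale, a summary of each probe set's brightness after background correction and scaling between arrays. The median intensity over all probe sets was 18.4 to 18.8 on the 6 arrays, and the 23 nonspecific control probe sets gave single values of 2.9 to 5.99. The ratio of the 3′ to the 5′ control probe set, a sign of RNA quality, was 1.67 to 1.92 for Actb and 1.27 to 1.43 for Gapdh. The cells carried the RNA of T cells, with summed intensities of the CD4 T cell list (8 measured genes) between 16771 and 21106 on the 6 arrays. In whole wells, fewer cells of a type and less RNA per cell cannot be told apart.

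Cdh1 RNA stood above background in the BTNL2 wells and in neither of the other groups. Its probe set (1448261) gave 233.1 and 101.79 in the 2 BTNL2 wells, 5.88 and 4.97 in the 2 B7-2 wells, and 4.95 and 5.04 in the 2 anti-CD3 wells. Both BTNL2 values lay far above the other 4 arrays, whose values overlapped one another and fell within the range of the nonspecific controls. The means were 167 ± 92.9 in BTNL2 wells, 5.42 ± 0.643 in B7-2 wells and 4.995 ± 0.0636 in anti-CD3 wells (SD, n = 2 each). The log2 change was 4.83 ± 0.33 (SE of the fit) for BTNL2 over B7-2 wells, or 28.5-fold, and 4.95 ± 0.33 for BTNL2 over anti-CD3 wells, or 30.8-fold. Since the lower side of both ratios sat at background, their sizes depend on how the background was set. Between B7-2 and anti-CD3 wells the log2 difference was 0.11 ± 0.33.

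Itgae, the receptor chain that binds E-cadherin, was detected in all 3 groups. Its intensities were 169.6 and 93.33 in BTNL2 wells, 33.11 and 40.43 in B7-2 wells, and 71.17 and 61.15 in anti-CD3 wells. The groups did not overlap, and the B7-2 wells were the lowest. The means were 131 ± 53.9, 36.8 ± 5.18 and 66.2 ± 7.09 in BTNL2, B7-2 and anti-CD3 wells (SD, n = 2 each). BTNL2 wells were 3.44-fold above B7-2 wells (log2 1.78 ± 0.26, SE) and 1.91-fold above anti-CD3 wells (0.93 ± 0.26), while B7-2 wells were 1.80-fold below anti-CD3 wells (log2 -0.85 ± 0.26).

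Itgb3, the β3 chain, showed the same order with duplicates close to each other. Its brighter probe set (1455257) gave 918.25 and 1000.18 in BTNL2 wells, 231.41 and 202.04 in B7-2 wells, and 780.42 and 766.96 in anti-CD3 wells. The B7-2 wells stood apart from both other groups, and the BTNL2 wells were only a little above the anti-CD3 wells. The log2 change was 2.15 ± 0.11 (SE) for BTNL2 over B7-2 wells, or 4.43-fold, 0.31 ± 0.11 for BTNL2 over anti-CD3 wells, or 1.24-fold, and -1.84 ± 0.11 for B7-2 over anti-CD3 wells, 3.58-fold lower. The dimmer probe set (1421511) gave 25.3 and 31.37 in BTNL2 wells, 10.58 and 13.25 in B7-2 wells, and 18.25 and 16.65 in anti-CD3 wells. It kept the order of the groups but with other sizes, 2.38-fold for BTNL2 over B7-2 wells and 1.62-fold for BTNL2 over anti-CD3 wells.

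Itga6, the α6 chain, also followed this order. Its brighter probe set (1422445) gave 721.55 and 549.24 in BTNL2 wells, 193.37 and 188.06 in B7-2 wells, and 359.21 and 318.35 in anti-CD3 wells. The means were 635 ± 122, 191 ± 3.75 and 339 ± 28.9 in BTNL2, B7-2 and anti-CD3 wells (SD, n = 2 each), and no value of one group lay within another. BTNL2 wells were 3.30-fold above B7-2 wells (log2 1.72 ± 0.14, SE) and 1.86-fold above anti-CD3 wells (0.90 ± 0.14), and B7-2 wells were 1.77-fold below anti-CD3 wells. The dimmer probe set (1422444) gave 107.43 and 80.69 in BTNL2 wells, 28.95 and 30.58 in B7-2 wells, and 49.18 and 45.92 in anti-CD3 wells. Its folds were close to those of the brighter one, at 3.13-fold for BTNL2 over B7-2 wells and 1.96-fold for BTNL2 over anti-CD3 wells.

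**Figure D1:**
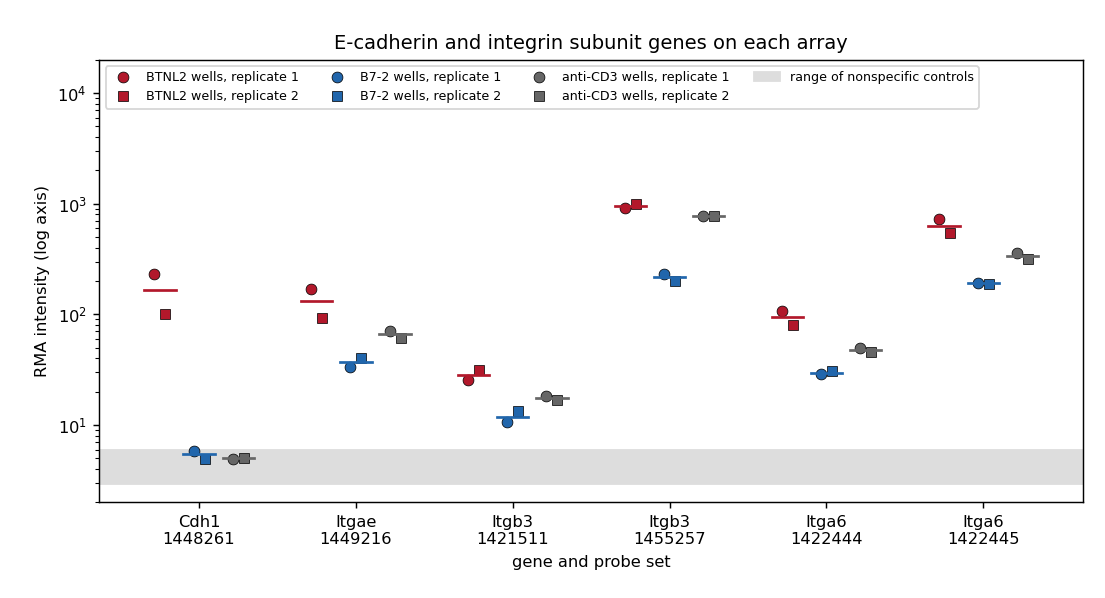
RMA intensity (log axis) of the 6 probe sets of Cdh1, Itgae, Itgb3 and Itga6 on each of the 6 arrays; points are arrays, short lines are group means, and the grey band is the range of the nonspecific controls. Cdh1 leaves the band in BTNL2 wells alone, while the other 5 probe sets run BTNL2, anti-CD3, B7-2 from high to low.

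The order BTNL2 above anti-CD3 above B7-2 wells, with no overlap, held for 5 of the 6 probe sets, Cdh1 being the exception. Over the whole array it held for 3.58% of probe sets (1614 of 45037). With a limma fit across all probe sets and an adjusted p under 0.05, all 6 were called higher in BTNL2 than in B7-2 wells, where 6.77% of probe sets were called higher and 7.04% lower (13.8% in all). Against anti-CD3 wells 5 were called higher in BTNL2 wells, the brighter Itgb3 probe set being the exception, beside 11.5% of all probe sets higher and 10.7% lower (22.2% in all). Between B7-2 and anti-CD3 wells 4 were called lower in B7-2 wells, those of Itgb3 and Itga6, and none higher, beside 8.56% of all probe sets lower and 8.78% higher (17.3% in all). These counts restate the values that chose the genes, and nothing is read from them. Several of these calls were also lost with 1 array left out. Such a fit leaves 1 array in a group and called fewer probe sets in all, so a loss need not come from that array's values. The call of Itgae over anti-CD3 wells was lost without BTNL2 replicate 1 (log2 change 0.50), anti-CD3 replicate 1 (1.04) or anti-CD3 replicate 2 (0.82). That of the dimmer Itgb3 probe set over anti-CD3 wells was lost without BTNL2 replicate 2 or anti-CD3 replicate 2. In B7-2 against anti-CD3 wells, the call of the brighter Itga6 probe set was lost without anti-CD3 replicate 1, that of the dimmer one without any 1 of those 4 arrays, and that of the dimmer Itgb3 probe set without B7-2 replicate 1 or either anti-CD3 array.

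The genes differed in how far the BTNL2 duplicates lay apart. Replicate 1 was 2.29-fold above replicate 2 for Cdh1 and 1.82-fold for Itgae. The 2 Itga6 probe sets differed by 1.31-fold and 1.33-fold in the same direction, and for Itgb3 replicate 2 was the higher, by 1.09-fold and 1.24-fold. Of the 15802 probe sets with a mean of at least 50 in BTNL2 wells, only 12 had duplicates at least as far apart as those of Cdh1, and 41 as far apart as those of Itgae. The median distance over those probe sets was 0.10 on the log2 scale. With 1 array left out, the log2 change of BTNL2 over B7-2 wells ran from 4.23 to 5.43 for Cdh1 and from 1.35 to 2.21 for Itgae, against 2.05 to 2.25 for the brighter Itgb3 probe set and 1.53 to 1.92 for the brighter Itga6 probe set. The dimmer Itgb3 probe set ran from 1.09 to 1.41, so the size of the Itgb3 change differed more between its probe sets than between arrays.

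**Figure D2:**
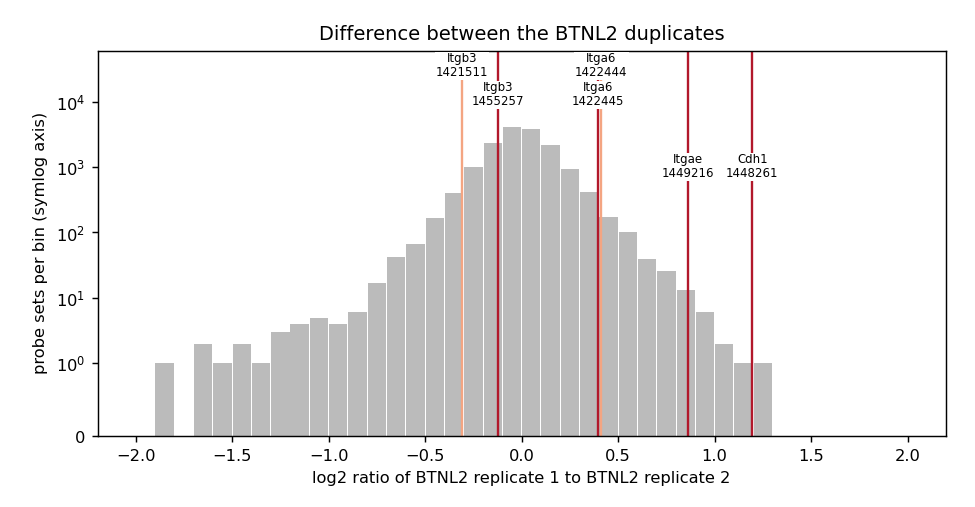
Histogram of the log2 ratio of BTNL2 replicate 1 to BTNL2 replicate 2 for the 15802 probe sets with a mean of at least 50 in BTNL2 wells (counts on a symlog axis), with vertical lines at the 6 probe sets of the 4 genes. Cdh1 and Itgae lie in the right tail, Itga6 nearer the middle and Itgb3 left of 0.

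The 12 probe sets with duplicates as far apart as Cdh1 include Cdh1 itself and Tdrp, both higher in replicate 1. The other 10, all higher in replicate 2, belong to Gzme and Gzmd, which encode granzymes, and to Tg, Epas1, Tgm2, Emilin2, Serpinf1 and Slc16a3. The part of this difference between cultures in the Cdh1 value was not tested.

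Itgb7, the β7 chain that CD103 needs at the cell surface, did not pass the test between BTNL2 and B7-2 wells. It averaged 808 in BTNL2 wells and 961 in B7-2 wells, a log2 change of -0.25 ± 0.10 (SE) with a 95% interval of -0.48 to -0.03 and an adjusted p of 0.142 (limma), or 0.0138 where the fit's prior variance followed intensity. Against anti-CD3 wells, which averaged 1191, Itgb7 fell in BTNL2 wells by 0.56 on the log2 scale (adjusted p = 0.00499, limma). Klrg1, the other receptor of E-cadherin, was dim and averaged 24.8 in BTNL2 wells and 16.2 in B7-2 wells, a log2 change of 0.61 ± 0.14 (SE, adjusted p = 0.0262, limma). That call was lost on leaving out B7-2 replicate 1 (adjusted p = 0.138), BTNL2 replicate 1 (0.0614) or BTNL2 replicate 2 (0.126).

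The partner chains of β3 and α6 did not pass the test between BTNL2 and B7-2 wells either, but for some the call depended on the setting. Itgav averaged 2169 in BTNL2 wells and 2686 in B7-2 wells (log2 -0.31 ± 0.10, SE, 95% interval -0.53 to -0.08, adjusted p = 0.0806, limma), and Itga2b, the platelet partner of β3, 21.3 in BTNL2 wells and 27.2 in B7-2 wells (adjusted p = 0.0775, limma). A second, dim Itgav probe set was called lower, with a log2 change of -1.13. Itgav passed as lower in 4 alternative fits (adjusted p of 0.000597 to 0.0497, limma), among them the one over 1 probe set per gene, and Itga2b in 2 (0.0420 and 0.0465). Itgb1 averaged 356 in BTNL2 wells and 261 in B7-2 wells, a log2 change of 0.44 with a 95% interval of 0.08 to 0.80 and an adjusted p of 0.116 (limma), and passed as higher with a prior variance that follows intensity (0.0254) or over the mean of its probe sets (0.0314). Itgb4 was dim, at 10.1 in BTNL2 wells and 11.7 in B7-2 wells (adjusted p = 0.278, limma). These intervals leave room for modest changes in the partners, but by these probe sets none reaches the size fitted for Itgae, Itgb3 or Itga6.

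Of the 20 other integrin subunits measured, 2 rose and 3 fell in BTNL2 against B7-2 wells (adjusted p under 0.05, limma), with a median log2 change of -0.10. Over all genes, each taken by its brightest probe set, 8.08% rose, 9.35% fell and the median was -0.01. Itga4, the α4 chain of lymphocyte homing receptors, rose with 470.78 and 420.53 in BTNL2 wells, against 323.38 and 349.62 in B7-2 wells, and was named after its values were seen. Itga10, a collagen-binding chain, rose 1.37-fold (adjusted p = 0.0213, limma) at low intensities. The calls of both were lost when any 1 of the BTNL2 or B7-2 arrays was left out, which left 0 higher and 3 lower.

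The chain that fell most was α7, a laminin-binding chain encoded by Itga7. It gave 13.86 and 17.27 in BTNL2 wells, 46.14 and 40.86 in B7-2 wells, and 153.55 and 163.45 in anti-CD3 wells, 3 groups that did not overlap. BTNL2 wells were 2.81-fold below B7-2 wells (adjusted p = 0.000427, limma), and B7-2 wells were 3.65-fold below anti-CD3 wells (adjusted p = 0.000354, limma). Itga6 and Itga7, both laminin-binding, therefore stood in opposite directions between BTNL2 and B7-2 wells. Itga3, another such chain, fell 1.76-fold (adjusted p = 0.00318, limma), and Itgb5, a partner of αv, fell 1.59-fold (adjusted p = 0.007, limma) at low intensities. A second, dimmer Itga3 probe set fell further, by 2.25 on the log2 scale. Between B7-2 and anti-CD3 wells 1 other subunit rose and 1 fell, beside 9.61% and 11.7% of all genes: Itgb5 rose 1.34-fold (adjusted p = 0.0389, limma) and Itga7 fell. The Itgb5 call was lost without any 1 of those 4 arrays (adjusted p of 0.0861 to 0.178). Between BTNL2 and anti-CD3 wells 3 rose and 3 fell, beside 12.6% and 14.8% of all genes, and none was called higher without any 1 of those 4 arrays.

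**Figure D3:**
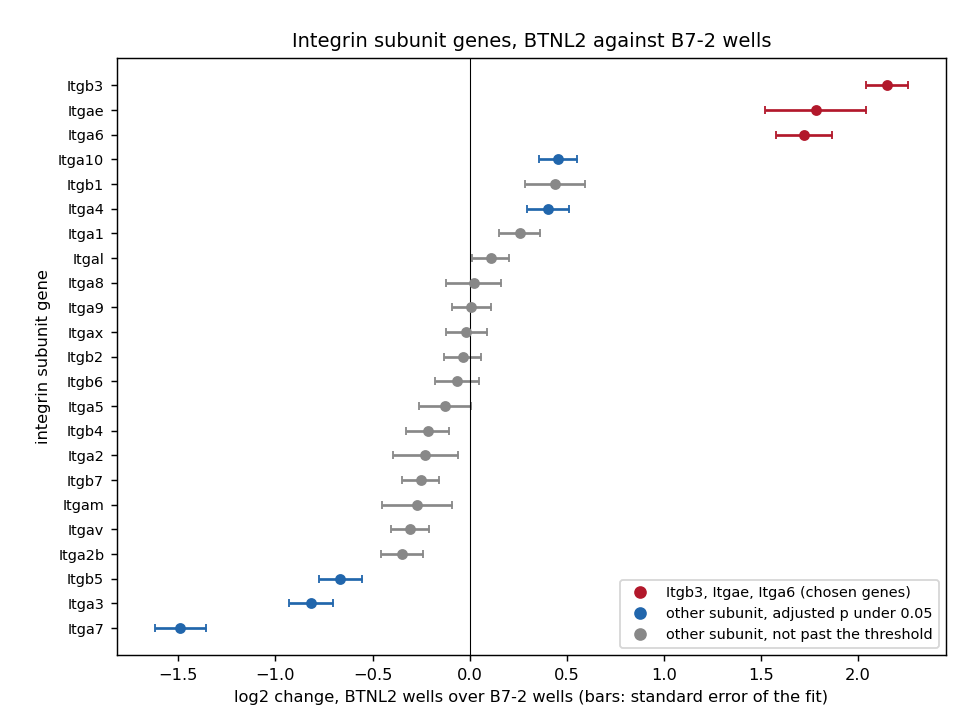
Log2 change of BTNL2 over B7-2 wells for each measured integrin subunit gene by its brightest probe set; bars are the standard error of the fit, red marks the 3 chosen chains, blue other chains past an adjusted p of 0.05 and grey the rest. Itgb3, Itgae and Itga6 stand at 1.72 to 2.15, and the other 20 subunits lie between Itga7 at -1.49 and Itga10, which is below 0.5.

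Among 18 other cadherins, none rose and 1 fell in BTNL2 against B7-2 wells, beside 8.08% and 9.35% of all genes. The gene that fell was Cdh17, a cadherin of intestine and liver. It gave 12.52 and 21.22 in BTNL2 wells, 73.62 and 76.69 in B7-2 wells, and 52.47 and 46.38 in anti-CD3 wells. Cdh17 thus moved against Cdh1, falling 4.61-fold (log2 -2.20 ± 0.22, SE, adjusted p = 0.000731, limma).

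Of 15 genes of the complex that ties cadherins to actin, 1 rose and 2 fell in BTNL2 against B7-2 wells, a share near that of all genes (8.08% and 9.35%). Against anti-CD3 wells 3 rose and 4 fell in BTNL2 wells, beside 12.6% and 14.8% of all genes. That count fell without any 1 array of those groups. Ctnnb1, which encodes β-catenin, averaged 3982 in BTNL2 wells and 3725 in B7-2 wells (log2 0.10, 95% interval -0.13 to 0.32, adjusted p = 0.607, limma). Ctnna1, the α-catenin that links it to actin, fell to 567 in BTNL2 wells, against 855 in B7-2 wells (log2 -0.59 ± 0.10, SE, adjusted p = 0.00689, limma). Afdn, which encodes the junction scaffold afadin, fell 1.77-fold (adjusted p = 0.00592, limma) and Iqgap1, a cytoskeletal scaffold, rose 1.47-fold (adjusted p = 0.00964, limma), a call lost without BTNL2 replicate 1 (0.0549) or B7-2 replicate 1 (0.0634). Ctnnd1, which encodes p120 catenin, averaged 27.3 in BTNL2 wells and 30.3 in B7-2 wells by its brightest probe set (adjusted p = 0.489, limma), while 2 further probe sets were called lower, with log2 changes of -1.12 and -0.77. Jup, or plakoglobin, was low in both, at 14.2 in BTNL2 wells and 17.5 in B7-2 wells. It fell by 1.54 on the log2 scale in B7-2 against anti-CD3 wells (adjusted p = 0.003, limma), which averaged 51.7. Lmo7 was also called lower in B7-2 than in anti-CD3 wells. That call was lost on averaging its probe sets (adjusted p = 0.324, limma), and without either B7-2 array or anti-CD3 replicate 1.

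A list of 17 genes held known regulators of E-cadherin and also its receptor gene Klrg1, described above. Of these, 2 were higher (Zeb1 and Klrg1), 1 was lower and 14 did not pass the test in BTNL2 against B7-2 wells. That share was near that of all genes (8.08% and 9.35%). Zeb1, a repressor of Cdh1 in epithelial cells, rose 1.46-fold (adjusted p = 0.0124, limma). The Zeb1 call was lost on averaging its probe sets (adjusted p = 0.110), and without B7-2 replicate 1 (0.0752) or BTNL2 replicate 1 (0.077). Ctbp2, a corepressor, fell 2.01-fold in BTNL2 against B7-2 wells (adjusted p = 0.0125, limma) and rose 2.12-fold in B7-2 against anti-CD3 wells (adjusted p = 0.00799, limma). By this probe set the call in BTNL2 wells was lost without BTNL2 replicate 1 (adjusted p = 0.0899, log2 change -0.84) or B7-2 replicate 2 (0.0703, -0.90). A second Ctbp2 probe set changed more, 6.46-fold lower in BTNL2 than in B7-2 wells and 6.11-fold higher in B7-2 than in anti-CD3 wells. Without BTNL2 replicate 1, none of the 17 was called between BTNL2 and B7-2 wells. Between B7-2 and anti-CD3 wells 3 rose and 2 fell, beside 9.61% and 11.7% of all genes. Tcf4, which encodes an E-box factor, fell there 2.09-fold (adjusted p = 0.00067, limma). Those 5 calls became 2 or 3 without any 1 array.

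Of 33 genes that switch integrins on or couple them to actin, 7 rose and 2 fell in BTNL2 against B7-2 wells. The median log2 change was 0.16, and over all genes 8.08% rose, 9.35% fell and the median was -0.01. Rasgrp2, the activator of the integrin switch Rap1, gave 135.76 and 87.85 in BTNL2 wells, 21.67 and 17.13 in B7-2 wells, and 29.38 and 21.45 in anti-CD3 wells. It rose 5.67-fold (log2 2.50 ± 0.24, SE, adjusted p = 0.000558, limma), and by 1.41 on the log2 scale when averaged with a second, dim probe set. Rasgrp1, its relative in T cell receptor signalling, rose 2.51-fold (adjusted p = 0.000339, limma). Fyb, an adaptor between the T cell receptor and integrins, rose 2.03-fold in BTNL2 against B7-2 wells (adjusted p = 0.000546, limma) and fell 2.15-fold in B7-2 against anti-CD3 wells (adjusted p = 0.000656, limma). Cd81, a tetraspanin, fell 1.82-fold in BTNL2 wells (adjusted p = 0.00395, limma). Between B7-2 and anti-CD3 wells 3 of the list rose and 10 fell, beside 9.61% and 11.7% of all genes. Actn1, an actin cross-linker, rose there 2.75-fold (adjusted p = 0.000988, limma). The count of 9 between BTNL2 and B7-2 wells was 5, 4 and 5 without BTNL2 replicate 1, B7-2 replicate 2 and B7-2 replicate 1, and the count of 13 between B7-2 and anti-CD3 wells was 4 to 7 without any 1 array of those groups.

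Of 20 genes for integrin ligands, 2 rose and 1 fell in BTNL2 against B7-2 wells, beside 8.08% and 9.35% of all genes. Icam2, an adhesion ligand of leukocytes, rose 1.77-fold (adjusted p = 0.00142, limma), and Lamc1, a chain of laminin, fell 1.62-fold (adjusted p = 0.00702, limma). Tgfb1, whose latent form binds αv integrins, rose 1.29-fold at an adjusted p of 0.0483 (limma). The Tgfb1 call was lost without any 1 of the 6 arrays (adjusted p of 0.0811 to 0.200), and that of Lamc1 without BTNL2 replicate 1 (0.0531). Lamc1 was also 1.69-fold lower in B7-2 than in anti-CD3 wells (adjusted p = 0.0047, limma).

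Genes of TGF-beta signalling and tissue residency include known regulators of CD103. Of 34 measured, 15 rose, 4 fell and 15 did not pass the test in BTNL2 against B7-2 wells (8.08% and 9.35% of all genes), with a median log2 change of 0.26. The list was drawn up with results of these data known, so its count is a description. Eomes, a T-box factor of effector and memory T cells, rose 63.8-fold (log2 6.00 ± 0.18, SE, adjusted p = 6.66e-06, limma). Klf3, a repressor related to Klf2, gave 277.48 and 156.57 in BTNL2 wells, 14.58 and 14.22 in B7-2 wells, and 37.71 and 40.63 in anti-CD3 wells. It rose 14.5-fold (log2 3.86 ± 0.23, SE, adjusted p = 7.81e-05, limma) by its brightest probe set, and by 1.49 on the log2 scale when all its probe sets were averaged.

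The TGF-beta receptor gene Tgfbr1 had the same order of groups as Itgae. It gave 1334.6 and 1108.74 in BTNL2 wells, 334.25 and 363.04 in B7-2 wells, and 595.58 and 528.28 in anti-CD3 wells. BTNL2 wells were 3.49-fold above B7-2 wells (log2 1.80 ± 0.13, SE, adjusted p = 0.000141, limma), and B7-2 wells were 1.61-fold below anti-CD3 wells (adjusted p = 0.00978, limma). Averaged with 2 dim probe sets, the BTNL2 change was 0.93 and the call between B7-2 and anti-CD3 wells was lost (adjusted p = 0.330), as it was without B7-2 replicate 1 (0.0578) or anti-CD3 replicate 1 (0.0669). Its partner Tgfbr2 rose by 0.82 on the log2 scale in BTNL2 against B7-2 wells, and so did the inhibitors of the pathway Smad7 (1.63), Ski (1.11), Skil (0.88) and Smurf1 (0.83). Runx3, a factor known to act on Itgae in CD8 T cells, rose by 0.64, and Notch1 by 0.35.

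Residency genes on the list did not all move one way. Cd69, which holds T cells in tissue, rose by 0.63 on the log2 scale in BTNL2 against B7-2 wells and the chemokine receptor Cxcr6 by 1.54, but so did Klf2, a factor of circulating T cells, by 1.06. Prdm1, which encodes Blimp-1, fell 2.27-fold in BTNL2 against B7-2 wells (adjusted p = 0.000492, limma) and rose 2.43-fold in B7-2 against anti-CD3 wells (adjusted p = 0.000603, limma). The nuclear receptor Nr4a3 rose 4.24-fold (adjusted p = 9.38e-05, limma; 0.70 on the log2 scale over all its probe sets), while its relatives Nr4a1 and Nr4a2 fell in BTNL2 wells, with log2 changes of -0.92 and -1.33. P2rx7, an ATP receptor, rose 2.80-fold in BTNL2 against B7-2 wells (adjusted p = 0.00106, limma) and fell 2.61-fold in B7-2 against anti-CD3 wells (adjusted p = 0.00173, limma). Over the list, 10 of 34 genes had the non-overlapping order BTNL2, anti-CD3, B7-2 from high to low, beside 4.32% of all genes. They were Tgfbr1, Ski, Skil, Smurf1, Runx3, Notch1, Klf2, Klf3, Cd69 and Cxcr6. In B7-2 against anti-CD3 wells 5 genes of the list rose and 8 fell, beside 9.61% and 11.7% of all genes. That count of 13 fell without any 1 array of those groups.

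**Figure D4:**
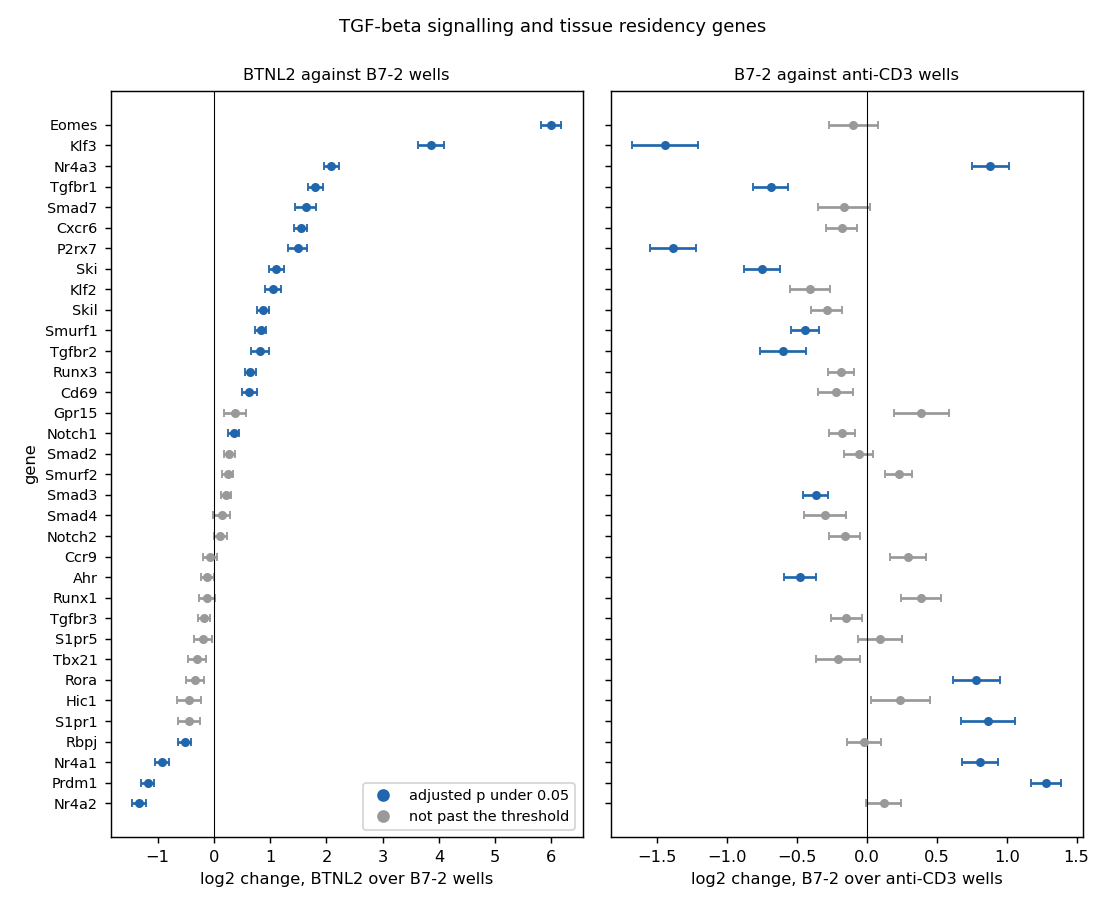
Log2 change of the 34 TGF-beta signalling and tissue residency genes for BTNL2 over B7-2 wells (left) and B7-2 over anti-CD3 wells (right), with bars for the standard error of the fit and blue for an adjusted p under 0.05. At left 15 genes are blue to the right of 0, led by Eomes at 6.00 and Klf3 at 3.86; at right 5 genes rose and 8 fell.

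Of 21 other adhesion and homing receptors, 5 rose and 3 fell in BTNL2 against B7-2 wells, beside 8.08% and 9.35% of all genes. Crtam, an adhesion receptor of cytotoxic T cells, rose 7.80-fold (adjusted p = 3.39e-05, limma) and Cd96, which binds nectins, rose 4.59-fold (adjusted p = 3.53e-05, limma). Of the SLAM family, whose members bind their own kind on other lymphocytes, Slamf6 rose 2.48-fold (adjusted p = 0.00039, limma) and Slamf1 fell 2.39-fold (adjusted p = 0.000421, limma). Between B7-2 and anti-CD3 wells 1 rose and 5 fell, beside 9.61% and 11.7% of all genes. Those that fell included Cd84, 2.17-fold lower (adjusted p = 0.000649, limma), and Selplg, the ligand of selectins, 2.00-fold lower (adjusted p = 0.000931, limma). Selplg was 1.60-fold higher in BTNL2 than in B7-2 wells (adjusted p = 0.00381, limma).

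The profiles of the 4 genes over the 6 arrays were compared with each other and with 15373 other genes. Genes with symbols of predicted genes or clones were left out. The measure was the root mean square difference of log2 values after each gene was centred on its own mean. Itgae and Itga6 were the closest pair, 0.167 apart, followed by Itgb3 and Itga6 at 0.446 and Itgae and Itgb3 at 0.520. Cdh1 lay 1.72 to 1.94 from the other 3, but 4 of its 6 values sat at background, so its distances and nearest genes depend on how the background was set. The arrays share the wells and the scaling, so these distances only describe likeness.

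The genes most like Cdh1 were Rtp4 at 0.204, Ifit1bl1 at 0.279, and Drc1 and Ifit1 at 0.362. Rtp4 and Ifit1 are known interferon-induced genes. Rtp4 gave 306.88 and 156.35 in BTNL2 wells, 9.72 and 9.20 in B7-2 wells, and 9.68 and 7.05 in anti-CD3 wells, high in the BTNL2 wells alone and, like Cdh1, higher in replicate 1. The genes most like Itgae were Slc9a9 at 0.117, Nav2 at 0.130, Slfn8 at 0.180 and Phlpp1 at 0.181. Those most like Itgb3 were Rtn4rl1 at 0.0929, Slc2a6 at 0.158, Chst2 at 0.159 and Nlrc3 at 0.162. Those most like Itga6 were Fam102a at 0.0956, Abcg1 at 0.105, Mmp11 at 0.107 and Tgfbr1 at 0.108.

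Genes of other cell types that carry these adhesion molecules were read on the same arrays. CD8 T cells and NK cells are known for CD103 in epithelium. Of their 12 listed markers, 9 were higher and none lower in BTNL2 than in B7-2 wells, beside 8.08% and 9.35% of all genes. Ncr1 and Klra1 of this list were in the lowest 40% of probe sets. The summed intensity was 11768 to 11926 in BTNL2 wells, 5019 to 5069 in B7-2 wells and 5182 to 5480 in anti-CD3 wells. Cd8a gave 986.55 and 924.12 in BTNL2 wells, 118.95 and 106.54 in B7-2 wells, and 301.91 and 320.67 in anti-CD3 wells, 8.48-fold higher in BTNL2 than in B7-2 wells (adjusted p = 1.14e-05, limma). Cd160 rose 6.44-fold (adjusted p = 4.11e-05, limma) and Klrd1 5.67-fold (adjusted p = 7.05e-05, limma). Eomes, described above, is on this list too. Of the 12, 7 had the order of groups seen for Itgae, Itgb3 and Itga6, beside 4.32% of all genes.

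The γδ T cell list (6 of 12 genes measured) summed to 801 to 998 in BTNL2 wells. The sum was 286 to 305 in B7-2 wells and 219 to 229 in anti-CD3 wells. Of its genes 3 rose and 1 fell in BTNL2 against B7-2 wells (8.08% and 9.35% of all genes), with a median log2 change of 0.36. Against anti-CD3 wells 2 rose and 1 fell (12.6% and 14.8% of all genes), with a median of -0.05, so the sums do not speak for every gene. Sox13 was in the lowest 40% of probe sets. Trgv1 rose 49.4-fold (adjusted p = 6e-06, limma) and Etv5 fell 4.50-fold. Without BTNL2 replicate 1 or either anti-CD3 array, 1 gene of this list was higher and 1 lower. Of 8 CD4 T cell markers, 1 rose and 2 fell in BTNL2 against B7-2 wells, beside 8.08% and 9.35% of all genes. Thy1 rose 1.28-fold (adjusted p = 0.0451, limma), and Cd5, 2.01-fold (adjusted p = 0.000542, limma), and Cd28, 1.68-fold (adjusted p = 0.00362, limma), fell. Genes on this list such as these 3 are not particular to CD4 T cells, so its sum does not measure those cells alone. The Thy1 call was lost without any 1 of the 6 arrays (adjusted p of 0.0769 to 0.177). The sums of the CD4 T cell list were 17272 to 17329 in BTNL2 wells, 16771 to 17176 in B7-2 wells and 20621 to 21106 in anti-CD3 wells. Against anti-CD3 wells 1 of its genes rose and 4 fell in BTNL2 wells, beside 12.6% and 14.8% of all genes. In B7-2 against anti-CD3 wells none rose and 3 fell, beside 9.61% and 11.7% of all genes. The part of the CD8, NK and γδ lists in the Itgae result was not tested.

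For epithelial, dendritic and platelet genes, cell types known for E-cadherin or β3, the median log2 changes of BTNL2 over B7-2 wells were 0.002, 0.001 and 0.03. The 13 epithelial markers summed to 196 to 200 in BTNL2 wells, 219 to 253 in B7-2 wells and 290 to 294 in anti-CD3 wells, with Krt7, Krt8, Krt19, Cldn4, Cldn7 and Elf3 in the lowest 40% of probe sets. Of the 13 markers 1 rose and 1 fell in BTNL2 against B7-2 wells, beside 8.08% and 9.35% of all genes. Epcam rose 2.00-fold (adjusted p = 0.00219, limma) and Krt18 fell 6.00-fold (adjusted p = 7.21e-05, limma). Epcam was called lower than in anti-CD3 wells in both B7-2 and BTNL2 wells. Its log2 change in BTNL2 over anti-CD3 wells was -0.61 without BTNL2 replicate 1 and -0.50 without BTNL2 replicate 2. The 15 dendritic and myeloid markers summed to 542 to 607 in BTNL2 wells, 1239 to 1284 in B7-2 wells and 1509 to 1523 in anti-CD3 wells, with Itgam, Xcr1, Cd209a, Adgre1, S100a8 and S100a9 in the lowest 40%. In BTNL2 against B7-2 wells 1 gene rose (Zbtb46), 2 fell (Batf3 and Cd68) and 12 did not pass the test, beside 8.08% and 9.35% of all genes. Zbtb46 had the order of groups seen for Itgae. Its call was lost without B7-2 replicate 2 or BTNL2 replicate 2, and that of Cd68 without B7-2 replicate 1 or BTNL2 replicate 2. The sum moved with Batf3, which gave 308.77 and 378.74 in BTNL2 wells, 1027.17 and 998.96 in B7-2 wells, and 1227.53 and 1190.58 in anti-CD3 wells.

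The 11 platelet and megakaryocyte markers summed to 169 to 194 in BTNL2 wells, 361 to 375 in B7-2 wells and 857 to 1042 in anti-CD3 wells. Between BTNL2 and B7-2 wells none rose, 1 fell and 10 did not pass the test, where 8.08% of all genes rose and 9.35% fell. The sum moved with 1 gene. Selp, which encodes P-selectin, gave 55.5 and 86.28 in BTNL2 wells, 262.19 and 250.99 in B7-2 wells, and 749.64 and 929.94 in anti-CD3 wells. Pf4, Ppbp, Gp1bb, Gp5, Gp6, Clec1b and Vwf were in the lowest 40%. The 9 mast cell and basophil markers summed to 123 to 127 in BTNL2 wells, 107 to 114 in B7-2 wells and 123 to 148 in anti-CD3 wells, with a median log2 change of 0.17 for BTNL2 over B7-2 wells. The 14 B cell markers summed to 4047 to 4989 in BTNL2 wells, 3082 to 3185 in B7-2 wells and 5655 to 6367 in anti-CD3 wells. Of them 6 were higher and 2 lower in BTNL2 than in B7-2 wells, beside 8.08% and 9.35% of all genes. Against anti-CD3 wells 1 was higher and 5 lower in BTNL2 wells, beside 12.6% and 14.8% of all genes. In B7-2 against anti-CD3 wells none was higher and 9 were lower, among them Cd79b and H2-Aa, beside 9.61% and 11.7% of all genes. The part of B cell RNA in the results was not tested.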

How the data were processed

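The deposited table holds intensities on a linear scale for 45141 probe sets on 6 arrays, made with RMA per the submitters' processing notes. Its version and chip definition were not given in the sources used here. Per the labels' protocols, 50 ng of RNA was amplified (NuGen Ovation) and biotin-labelled for each array. After 104 control probe sets were set aside, log2 of the remaining 45037 was fitted with limma 3.58.1 (R 4.3.3), all 3 groups in 1 model, with moderated variances (3 residual and 4.438 prior degrees of freedom) and Benjamini-Hochberg adjustment over all 45037. No dim probe set was left out. Of these, 28898 probe sets have 1 gene symbol, 551 several and 15588 none here; 28689 symbols were updated through a GRCm38.p6 gene table, used for names only. In lists a gene stands by its probe set of highest mean.

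The members and lists were chosen with earlier results of these data known. From each pathway list the text names the 4 genes with the smallest p between BTNL2 and B7-2 wells and the 2 between B7-2 and anti-CD3 wells, among those past an adjusted p of 0.05, plus the direct partners; other list members are named as called in counts. Marker lists are given with up to 4 called genes, and for each member the 4 genes of most similar profile. The fit was tested on simulated data with 200 changed probe sets. Labels and headers name no batch. The number of arrays limits the precision.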

Additional observations from a re-analysis of the deposited data

How the results depend on the processing

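No call of the 6 probe sets or of the named genes reversed under any alternative run. For BTNL2 over B7-2, BTNL2 over anti-CD3 and B7-2 over anti-CD3 wells, 6222, 10010 and 7809 probe sets were called. With 1 probe set per gene, 3482, 5197 and 4190 genes were called, and with the mean of a gene's probe sets 3446, 5137 and 4068, where only 17097 features were tested. Without 1 array the counts ran from 3333 to 5409, 6678 to 9459 and 4202 to 7343. An intensity trend in the variance prior gave 8472, 11843 and 10088; the cause was not tested.

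The mean of both Itgb3 probe sets had log2 changes of 1.70, 0.50 and -1.20. In the same settings the other 147 values of the members stayed within the spread between replicates, as they did with 1 array left out in 88 of 108. Most of these settings change only the variance, the features tested or a replicate term, and so cannot move a log2 change. Leaving out an array outside a comparison cannot move it either, so these counts say little about how stable the sizes are. With an intensity trend, the brighter Itgb3 probe set over anti-CD3 wells in BTNL2 wells and Itgae in B7-2 over anti-CD3 wells also passed the threshold. With 1 array left out, the change over B7-2 wells in BTNL2 wells ran from 4.23 to 5.43 (Cdh1), 1.35 to 2.21 (Itgae), 2.05 to 2.25 (Itgb3) and 1.53 to 1.92 (Itga6), by the brightest probe sets. Over anti-CD3 wells it ran from 4.35 to 5.54 (Cdh1), 0.50 to 1.36 (Itgae) and 0.70 to 1.09 (Itga6), and for Itgb3 in B7-2 over anti-CD3 wells from -1.94 to -1.74.

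Replicate numbers did not pair the wells: deviations of same-numbered wells correlated at -0.10 for B7-2 and anti-CD3 wells, -0.02 for BTNL2 and anti-CD3 wells and -0.003 for BTNL2 and B7-2 wells. With the replicate block, 5691, 9346 and 7143 probe sets were called.

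With the mean of probe sets, 1 gene of the cadherin complex rose and 4 fell in BTNL2 against B7-2 wells, and with an intensity trend 3 other integrin subunits rose and 5 fell. With 2 arrays a group, small changes of dim genes such as Itgb4, Klrg1 and Itga10 cannot be sized well, and Cdh1 has no measured level outside BTNL2 wells.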
